A study of Mus musculus with 159 samples.

Results

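The data are the MARCO+ segments of mouse liver sections profiled on the GeoMx platform, compared between regions of interest (ROIs) rich and poor in MARCO staining. GeoMx hybridizes barcoded RNA probes to fixed tissue and counts the barcodes released from one illuminated area at a time. A MARCO+ segment is the part of a ROI that stained for MARCO and the macrophage protein IBA1 but not for DESMIN, a stellate cell protein. Taking every segment of that kind gave 45 of the 159 segments in the deposited table, and all 607 genes of the table were used. Of the 45, 26 lay in MARCO-high ROIs (5, 8, 6 and 7 in livers 1 to 4) and 19 in MARCO-low ROIs (7, 6, 4 and 2). ROIs were picked and classed by eye on the stain, so the class describes the neighbourhood of the cells as well as the cells. The 4 livers came, per the study's methods, from young adult wild-type C57BL/6 mice, male and female, given repeated CCl4, a hepatotoxin that causes fibrosis. Those methods gave the mice either saline or MARCO+ bone marrow-derived macrophages, but the labels do not say which liver received which. The labels instead call livers 1 and 3 treated CCl4 with fibrosis, and livers 2 and 4 control and healthy. The pairs are therefore named by these labels only, and neither pair is assigned to a transfer. There is 1 liver per animal, so livers are the replicates and segments are averaged within them.

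MARCO is a class A scavenger receptor that binds bacteria, particles and modified lipoproteins, and in the liver it is found on Kupffer cells, the resident macrophages of the sinusoids. Fcna encodes ficolin-A, a secreted lectin that recognises sugars on microbes and starts the lectin pathway of complement. Hepatic stellate cells lie beside the sinusoids, store vitamin A and, once activated, make the fibrillar collagens of scar tissue. The authors had reduced the table to genes mainly expressed in stellate cells, so it holds few macrophage genes. Of 34 Kupffer and resident macrophage genes listed, 1 was in the table (Id3), and hepatocyte, endothelial, cholangiocyte and lymphocyte lists had 0 genes in it.

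The 250 bases upstream of the start of 3 genes are shown because these 3 passed the test between ROI classes. They were read from RefSeq (GRCm38.p6) on the strand of the gene. The window of Marco is chr1:120505025-120505274 (minus strand), that of Fcna chr2:25627975-25628224 (minus strand) and that of Col3a1 chr1:45311288-45311537 (plus strand). The Fcna window lies within the span RefSeq gives the gene, since other Fcna transcripts start further upstream. Capitals mark matches, on either strand, to the purine-rich hexamer GAGGAA, to the half-site TGCTGA, to the TATA box as TATAAA, to the GC box as GGGCGG and to the CCAAT box.
Marco: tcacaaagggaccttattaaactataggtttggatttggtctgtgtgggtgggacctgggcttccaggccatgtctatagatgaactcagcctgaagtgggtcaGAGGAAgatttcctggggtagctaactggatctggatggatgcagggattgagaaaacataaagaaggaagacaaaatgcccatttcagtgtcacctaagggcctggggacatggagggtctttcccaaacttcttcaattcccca
Fcna: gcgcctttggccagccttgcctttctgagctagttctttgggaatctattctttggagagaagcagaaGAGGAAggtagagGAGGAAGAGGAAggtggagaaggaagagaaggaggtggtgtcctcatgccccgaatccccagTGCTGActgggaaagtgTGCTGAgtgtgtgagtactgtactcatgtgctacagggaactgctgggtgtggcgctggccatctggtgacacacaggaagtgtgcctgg
Col3a1: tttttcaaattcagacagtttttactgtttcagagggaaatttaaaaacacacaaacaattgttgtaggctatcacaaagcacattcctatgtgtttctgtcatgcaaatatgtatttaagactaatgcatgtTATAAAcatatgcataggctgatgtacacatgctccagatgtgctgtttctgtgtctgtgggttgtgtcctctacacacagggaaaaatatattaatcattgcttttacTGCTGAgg
GAGGAA matched at 1 place upstream of Marco and at 3 places upstream of Fcna, and at least 1 match was present in 23.3% of 32851 RefSeq windows of this length. TGCTGA matched at 2 places upstream of Fcna and 1 upstream of Col3a1 (16.1% of windows), and TATAAA at 1 place upstream of Col3a1 (12.4%). GGGCGG (32.7% of windows) and CCAAT (33.8%) had 0 matches in these 3 windows. These matches are a description of letters and not of factor binding.

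Counts recovered from the deposited values totalled 3106 to 27341 per MARCO+ segment over the 607 genes, with a median of 8408, and the upper quartile gene had a median of 15.5 counts. The median total of MARCO-high segments was 6652, 6886.5, 20588 and 13691 counts in livers 1 to 4, against 8080, 7501, 7600 and 9085 in MARCO-low segments. The log2 difference of these medians averaged 0.41 (exact two-sided sign-flip permutation test over 4 livers, p = 0.5), and 4 livers cannot reach the usual threshold in this test. MARCO-high segments were thus deeper in livers 3 and 4 only, and the part of depth in the results below was not tested beyond the thinned counts given there.

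Marco itself followed the stain. Its mean Q3-normalized value (counts scaled to the upper quartile of each segment) was 1144, 242.4, 1382 and 284.3 in the MARCO-high segments of livers 1 to 4, and 373.1, 94.6, 533.7 and 94.4 in the MARCO-low segments. Within each liver nearly all MARCO-high segments lay above the highest MARCO-low segment, with 1 exception among 8 in liver 2. Livers 1 and 3, labelled treated CCl4, had higher levels in both classes than livers 2 and 4. The log2 difference between classes was 1.61, 1.35, 1.37 and 1.58 per liver and 1.48 on average (SE 0.13, adjusted p = 0.00547, limma with Benjamini-Hochberg adjustment). Because ROIs were classed on MARCO protein, this checks the labels and is not a finding.

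**Figure D1:**
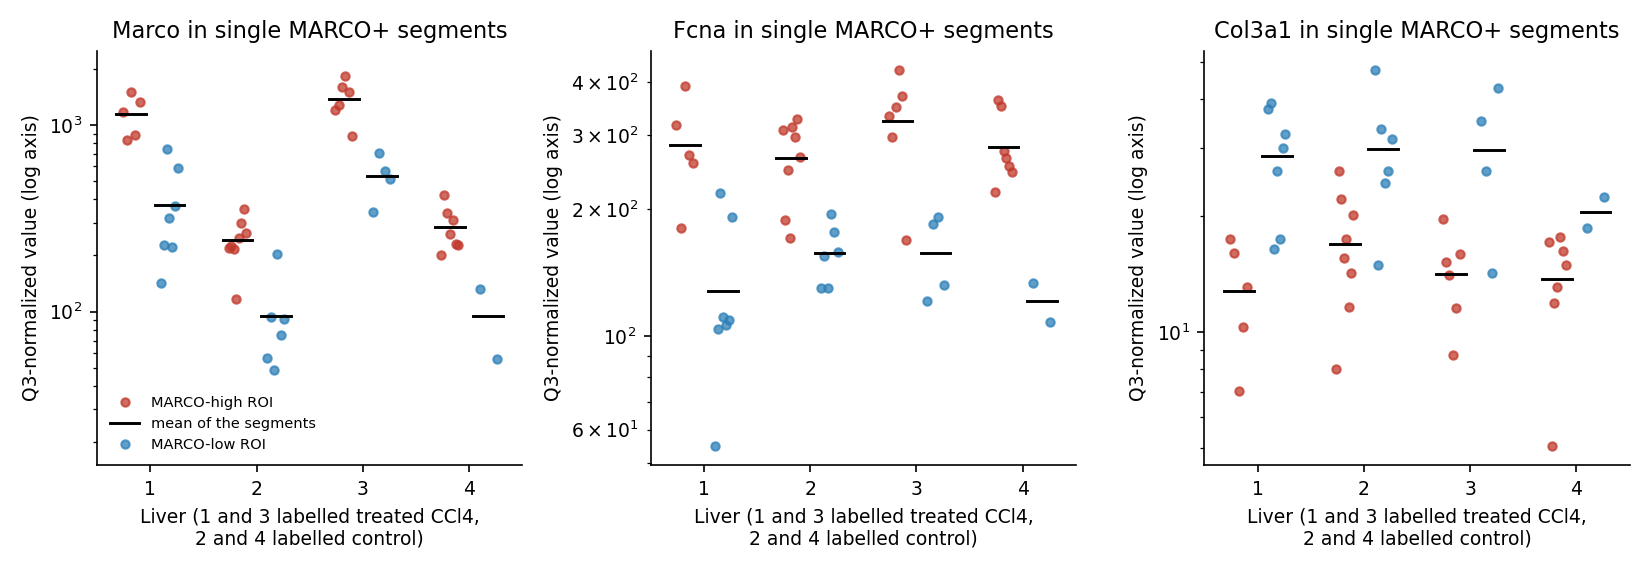
Q3-normalized values (log axis) of Marco, Fcna and Col3a1 in each of the 45 MARCO+ segments, by liver and ROI class, with black lines at the mean of each group. Fcna means were 283.7, 265.0, 324.7 and 281.8 in MARCO-high and 128.3, 157.5, 157.4 and 121.1 in MARCO-low segments, while the Col3a1 groups ran the other way.

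The question was which other transcripts of MARCO+ macrophage areas differ between MARCO-high and MARCO-low regions of the same liver. Fcna was higher and Col3a1 lower in MARCO-high ROIs in each of the 4 livers, and with Marco they were the 3 genes that passed the test out of 607 (0.494%). At an unadjusted p below 0.05 there were 64 genes, 23 higher and 41 lower. Over all 607 genes 8.4% were higher in MARCO-high ROIs in 4 of 4 livers and 12.9% were lower, and the median log2 difference was -0.02.

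Fcna, the ficolin-A gene, had mean values of 283.7, 265.0, 324.7 and 281.8 in MARCO-high segments of livers 1 to 4. In MARCO-low segments they were 128.3, 157.5, 157.4 and 121.1, so all MARCO-high means lay above all MARCO-low means. How often class means lie apart in this way over all genes was not counted, here or for Col3a1 and Cd63 below. Single segments overlapped in part: 4 of 5, 6 of 8, 5 of 6 and 7 of 7 MARCO-high segments exceeded the highest MARCO-low segment of their liver. The log2 difference was 1.14, 0.75, 1.04 and 1.21 per liver, and 1.03 on average (SE 0.14, adjusted p = 0.0405, limma). Its median count was 210.5 per MARCO-high and 81 per MARCO-low segment, far above the lowest counts of the table. Unlike Marco, Fcna stood at a similar level in all 4 livers within a class. A larger share of macrophages in a segment and more Fcna RNA per macrophage cannot be told apart here. Values are scaled to the upper quartile of the same 607 genes, mainly expressed in stellate cells, and the part of that scaling was not tested.

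Col3a1, a chain of type III collagen, had mean values of 12.8, 16.9, 14.1 and 13.7 in MARCO-high segments of livers 1 to 4. In MARCO-low segments they were 28.5, 29.7, 29.6 and 20.5, so the means of the classes did not overlap either. Segments below the lowest MARCO-low segment of their liver numbered 4 of 5, 3 of 8, 3 of 6 and 7 of 7. The log2 difference was -1.10, -0.78, -1.01 and -0.55 per liver and -0.86 on average (SE 0.13, adjusted p = 0.0499, limma). In such segments, fewer collagen-making cells and less RNA per cell cannot be told apart. The values rest on median counts of 11.5 and 15 per segment, and the adjusted p lies just inside the threshold of 0.05. With any 1 of the 4 livers left out 0 of 607 genes passed (27 to 64 at an unadjusted p below 0.05), Marco included, and the fit then has 1 fewer liver to estimate the spread from. With all segments thinned to 3106 counts 0 genes passed as well (43 unadjusted), and the log2 differences were then 0.96 for Fcna and -0.78 for Col3a1.

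**Figure D2:**
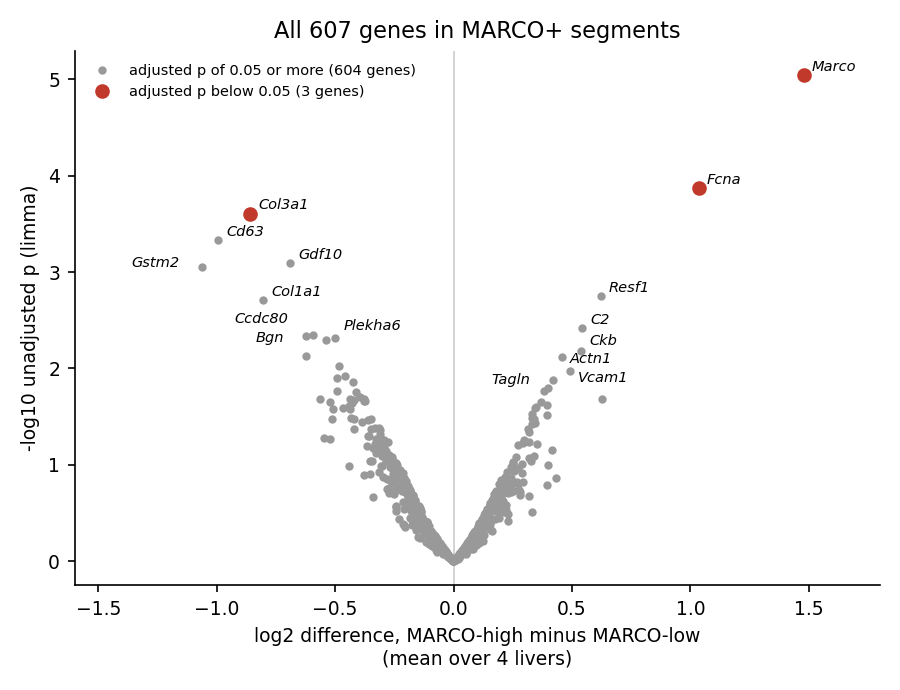
All 607 genes by log2 difference between MARCO-high and MARCO-low ROIs in MARCO+ segments (mean over 4 livers, horizontal) and -log10 of the unadjusted limma p (vertical), with the 16 named genes labelled. Marco, Fcna and Col3a1 (red) passed the adjusted threshold, and the other 604 did not.

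The genes next in order on the lower side, each lower in 4 of 4 livers but not past the adjusted threshold, were Cd63, Gdf10, Gstm2, Col1a1, Ccdc80, Bgn and Plekha6. Cd63, a tetraspanin of late endosomes and lysosomes, had mean values of 15.1, 12.3, 13.2 and 15.4 in MARCO-high and 31.5, 30.1, 33.1 and 21.7 in MARCO-low segments. The 2 classes did not overlap in their means, a trait that was not counted over all genes. The log2 difference was -0.99 (SE 0.16, adjusted p = 0.0707, limma). Gstm2, a glutathione S-transferase, had a difference of -1.06 (SE 0.19, adjusted p = 0.0899, limma), with means of 10.9 to 14.2 in MARCO-high and 19 to 41.4 in MARCO-low segments. Gdf10, a BMP family ligand, was measured at 4.0 to 5.6 against 7.2 to 9.2, a difference of -0.69 that rests on median counts of 3.5 and 4.

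Col1a1, a chain of type I collagen, had means of 4.8, 6.9, 6.7 and 6.1 in MARCO-high and 14.6, 12.2, 11 and 8.4 in MARCO-low segments. Its log2 difference was -0.80 (SE 0.17, adjusted p = 0.149, limma), widest in liver 1 at -1.43 and narrowest in liver 4 at -0.40. Bgn, the small matrix proteoglycan biglycan, had differences of -1.08, -0.63, -0.78 and -0.00, so liver 4 showed next to none. Ccdc80, a matrix protein gene, stood at -0.59 and Plekha6, a pleckstrin homology domain gene, at -0.50.

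On the higher side, the genes next in order and higher in 4 of 4 livers were Resf1, C2, Ckb, Actn1, Vcam1 and Tagln, and none of the 6 passed the adjusted threshold. Resf1, a factor of retroelement silencing, had differences of 0.26, 1.13, 0.23 and 0.86, mean 0.62, at median counts of 7 and 2. C2, the complement protease shared by the classical and lectin pathways, had means of 33.9, 25.4, 25 and 28.1 in MARCO-high and 16.4, 21, 14.7 and 24.8 in MARCO-low segments. Its log2 difference was 0.54 (SE 0.13, adjusted p = 0.237, limma). Vcam1, an adhesion molecule, stood at 0.49 with 0.02 in liver 4. Ckb, the brain-type creatine kinase, stood at 0.54, and the actin-binding genes Actn1 and Tagln at 0.46 and 0.42. edgeR on summed counts called 30 of 607 genes (4.94%), 14 higher and 16 lower, and DESeq2 called 9, so the number past the threshold depended on the model while Marco, Fcna and Col3a1 were called by both.

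**Figure D3:**
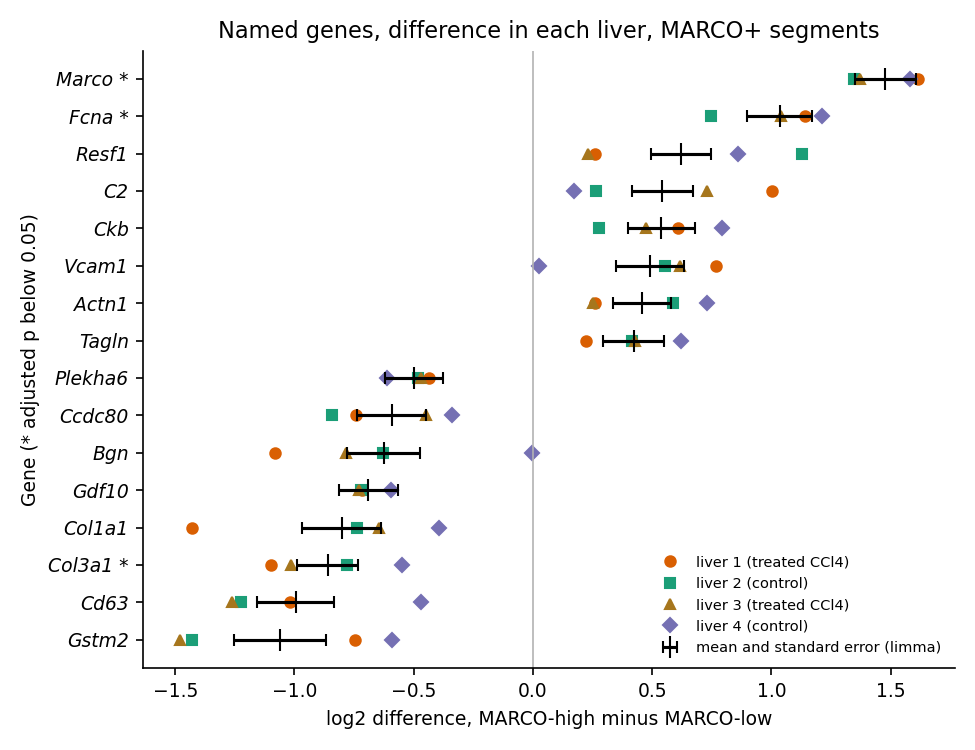
The log2 difference between MARCO-high and MARCO-low ROIs (horizontal) in each liver (coloured symbols) for the 16 named genes, with the mean and its limma standard error (black). The 4 livers lie on one side of 0 for every gene shown, as the choice of genes requires, with Bgn and Vcam1 near 0 in liver 4.

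The comparison was also made within each treatment label. In the livers labelled treated CCl4, 1 of 607 genes passed (0.165%), Marco at 1.49 (adjusted p = 0.0498, limma), with 37 genes at an unadjusted p below 0.05. ROIs were classed on MARCO protein, so this call checks the labels, and no other gene passed. In the livers labelled control 0 genes passed (0%), with 57 unadjusted, and Marco stood at 1.46 (adjusted p = 0.0563, limma). edgeR called 23 genes in the first pair and 3 in the second, and DESeq2 7 and 2. Fcna differed by 1.09 in the treated CCl4 pair and by 0.98 in the control pair, Col3a1 by -1.06 and -0.67, and Cd63 by -1.14 and -0.85. Col1a1 differed by -1.04 and -0.57. The difference between the pairs was tested for all genes and 0 of 607 passed (0%, 30 unadjusted, 0 by edgeR and 0 by DESeq2). For Fcna that difference was 0.11 (SE 0.27) and for Col3a1 -0.39 (SE 0.25). Each pair holds 2 livers, and intervals of this width leave room for differences between the labels.

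Gene groups were described by their counts and medians, beside 0.165% of all genes past the test in the lower direction and 12.9% lower in 4 of 4 livers. Of 5 fibrillar collagen chains measured, 1 passed the test (Col3a1), 3 were lower in 4 of 4 livers (Col1a1, Col3a1 and Col5a1) and the median log2 difference was -0.42. Their summed value was 35.5 to 46.0 in MARCO-high and 48.7 to 70.7 in MARCO-low segments, lower in MARCO-high in each liver. Col1a2 stood at -0.42 and Col5a2 at -0.06. In thinned counts the list median was -0.75. Of 4 small leucine-rich proteoglycans, which bind and space collagen fibrils, 0 passed and 2 were lower in 4 of 4 livers, with a median of -0.59. Per liver that median was -1.10, -0.68, -0.34 and 0.01, and it was -0.38 without liver 1 and -0.37 without liver 2. Decorin (Dcn) had means of 37.6, 44.8, 41.8 and 46.1 in MARCO-high and 84.2, 74.7, 61.5 and 49.0 in MARCO-low segments, with a log2 difference of -0.63.

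Other matrix groups were nearer the median of all genes. Of 21 elastic fibre and matrix glycoprotein genes, 0 passed and 5 were lower in 4 of 4 livers, with a median of -0.09 and the lowest value for Reln (reelin) at -0.51. The 7 basement membrane genes had a median of -0.07, with 0 lower in 4 of 4 livers, and the 4 other collagen chains a median of -0.18 with 1 lower in 4 of 4. The 13 matrix proteases, inhibitors and cross-linking genes had a median of 0.03 and 1 lower in 4 of 4. These medians moved with the livers used. That of the glycoproteins was -0.01, -0.21 and -0.18 on leaving out liver 1, 3 or 4. That of the basement membrane genes was 0.01, 0.20, -0.18 and -0.34 without livers 1 to 4 in turn, and that of the proteases 0.19, 0.01, -0.17 and -0.08. The other collagen chains were at -0.09, -0.05 and -0.31 on leaving out liver 1, 2 or 4.

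Stellate and mural cell genes were followed because a segment mask can take in RNA of neighbouring cells. None of the 20 quiescent stellate cell genes measured passed the test, 6 were lower in 4 of 4 livers and 0 higher, and the median was -0.14. Their summed value was 201.9, 220.7, 216.7 and 238.1 in the MARCO-high and 297.0, 275.5, 217.2 and 235.6 in the MARCO-low segments of livers 1 to 4. It was thus lower in MARCO-high segments of livers 1 and 2, and within a few units of the MARCO-low value in livers 3 and 4. Leaving out liver 2, 3 or 4 gave medians of -0.05, -0.23 and -0.22. Des, the gene of the stained protein desmin, had means of 4.8, 4.9, 6.3 and 4.4 against 6.9, 7.3, 6.9 and 8.4, a difference of -0.46 at median counts of 4.5 and 4. The vitamin A esterifying enzyme gene Lrat stood at -0.20. Of the 20 genes 14 had a lower mean and 6 a higher one, and the part of stellate cell RNA in the Col3a1 difference was not tested. None of these markers is at 0 in the table, which holds no count below 1.

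Of 4 pericyte and mural genes 0 passed and 1 was lower in 4 of 4 livers (Rgs5, -0.42), with a median of -0.24 that was -0.08 without liver 1 and -0.04 without liver 2. The 16 contractile and cytoskeletal genes had a median of -0.03 with 3 lower and 2 higher in 4 of 4 livers, and the median was 0.00, -0.01 and -0.11 without livers 1, 2 and 3. Mylk, the myosin light chain kinase, was at -0.49 while Actn1 and Tagln were at 0.46 and 0.42, so this group had no common direction. Of 10 TGF-beta and BMP signalling genes 0 passed and 4 were lower in 4 of 4 livers, with a median of -0.25. These 4 were Gdf10, Fstl1, Tgfbr3 and Bmpr1a, and the median was -0.07 without liver 2 and 0.10 in liver 4 alone. The 8 axon guidance and adhesion genes had a median of -0.27, with Cdh2 (N-cadherin) at -0.54 and Alcam at -0.49, and the 6 integrins a median of -0.09. Without liver 1 these medians were -0.11 and -0.02, and that of the integrins was -0.06 without liver 2 and -0.21 without liver 4. The 5 chemokine and growth factor genes had a median of -0.22, with Cxcl12, a chemokine of mesenchymal cells, at -0.44 and lower in 3 of 4 livers, and the median was -0.12 without liver 1.

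Among the lectin pathway genes, Fcna passed in the higher direction, whereas Colec10, Colec11, Colec12 and Masp1 lay between -0.38 and -0.15 and did not pass, and the median of the 5 genes was -0.22. That median was -0.29, 0.04, -0.19 and 0.02 in livers 1 to 4, -0.11 without liver 1, -0.14 without liver 3 and 0.05 in thinned counts, so it had no settled direction. Colec10 and Colec11 encode collectins and Masp1 a protease that acts with them and with ficolins. Colec11 had means of 11.8, 18.1, 11.1 and 13.6 in MARCO-high and 23.9, 17, 12.8 and 13.4 in MARCO-low segments, apart in liver 1 alone. Among macrophage genes, Id3, a transcription regulator of Kupffer cells, stood at 0.13. Of 3 genes of monocyte-derived and lipid-associated macrophages Cd63 was at -0.99, lipoprotein lipase (Lpl) at 0.13 and Plac8 at 0.04. The 7 stress response genes had a median of 0.10 (0.17, 0.06 and 0.03 without livers 1, 3 and 4), with 0 in one direction in 4 of 4 livers.

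**Figure D4:**
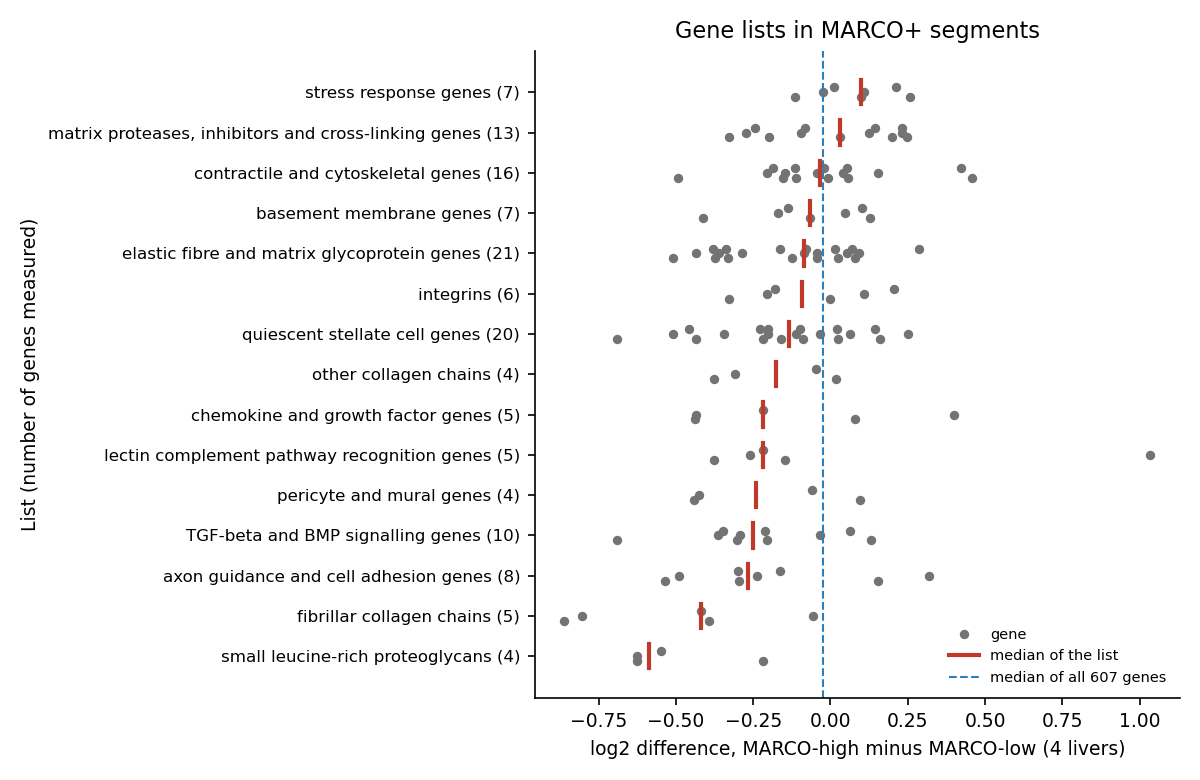
The log2 difference between MARCO-high and MARCO-low ROIs (4 livers, horizontal) of each gene of the 15 lists with at least 4 genes measured (points), the list median (red) and the median of all 607 genes (dashed, -0.02). Small leucine-rich proteoglycans (-0.59) and fibrillar collagens (-0.42) lie lowest, and Fcna stands apart in the lectin pathway list at 1.03.

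The same livers held HSC segments (41, DESMIN+) and Other segments (49, without any of the 3 stains). The class difference could thus be compared between segment types, though not all ROIs gave every type. In liver 4 the MARCO-low MARCO+ segments came from ROIs 002 and 003, and the HSC and Other segments from ROIs 001, 002 and 006. The part of the choice of ROIs in the differences between segment types was not tested. A further type, areas with IBA1 but neither MARCO nor DESMIN, was not compared. Liver 2 gave it in MARCO-low ROIs only, and liver 1 gave it in MARCO-high ROI 005 alone. Its totals ran from 1065 to 4457 counts, and whether the class differences below are present in it was not tested. For Fcna the class difference differed between MARCO+ and HSC segments, with opposite signs. In HSC segments its means were 9.6, 12.7, 17.8 and 23.2 in MARCO-high and 23.3, 28.2, 28 and 24.2 in MARCO-low ROIs of livers 1 to 4, a mean log2 difference of -0.74. These are values near the floor of the table, whose lowest count is 1. The median Fcna count was 1, 2, 3 and 8 in MARCO-high against 4.5, 14, 10.5 and 15 in MARCO-low HSC segments, and 14 of 25 MARCO-high segments held 3 counts or fewer, against 3 of 16. These counts are not scaled for depth, and the median total of HSC segments was lower in MARCO-high than in MARCO-low ROIs of each liver. Totals ran from 1448 to 9979 in MARCO-high and from 2377 to 16715 in MARCO-low HSC segments. The part of depth in this gap was not tested. Subtracting the HSC class difference from that of MARCO+ segments left 1.78 (SE 0.27, adjusted p = 0.000137, limma over 4 within-liver differences), and Fcna was the 1 gene of 607 that passed (0.165%). With every count below 3 set to 3, the HSC difference shrank to -0.32 and the difference between segment types to 1.36 (SE 0.24, adjusted p = 1.42e-05, limma), so the size in HSC segments is not settled at this depth. Fcna passed without any 1 of the 4 livers too, at adjusted p between 5.37e-05 and 0.0176. In liver 4 the HSC difference was -0.06, against -1.20 in liver 1. These p-values lean on the spread pooled over genes, since 4 differences leave 3 residual degrees of freedom beside 26.4 from the pooled estimate. HSC segments held far less Fcna than MARCO+ segments, and what share of it came from macrophages touching the mask was not tested. Marco had a log2 difference of 1.12 in HSC segments, and its difference between segment types was 0.35 (SE 0.28, adjusted p = 0.64, limma).

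Against Other segments, 0 of 607 genes passed (0%, limma, 50 unadjusted). The lowest adjusted p were those of Marco (difference 1.14, adjusted p = 0.0868), Fcna (0.86, adjusted p = 0.089) and Cd63 (-0.84, adjusted p = 0.089). In Other segments the class difference was -0.13 for Marco and -0.26 for Fcna in liver 3, but positive in livers 1, 2 and 4. MARCO-low ROIs 006 and 007 of liver 3 gave no MARCO+ segment. Their Other segments held Marco at 59.6 and 56.2 and Fcna at 21.6 and 19.8. The remaining MARCO-low Other segments there held at most 19.4 and 9.01. In liver 1, MARCO-high ROI 004 also gave no MARCO+ segment, and its Other segment held Marco at 59.7. The part of these segments was not tested. Col3a1 was lower in MARCO-high ROIs in 4 of 4 livers in all 3 segment types compared. Its mean log2 difference was -0.86 in MARCO+, -1.17 in HSC and -0.43 in Other segments, while its level in HSC segments (42.9 to 198.9) was well above that in MARCO+ segments (12.8 to 29.7). The difference between segment types did not pass the test for Col3a1 (0.31, SE 0.29, against HSC segments and -0.43, SE 0.12, against Other segments). Cd63 differed by -0.99 in MARCO+ segments, -0.30 in HSC and -0.16 in Other segments.

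**Figure D5:**
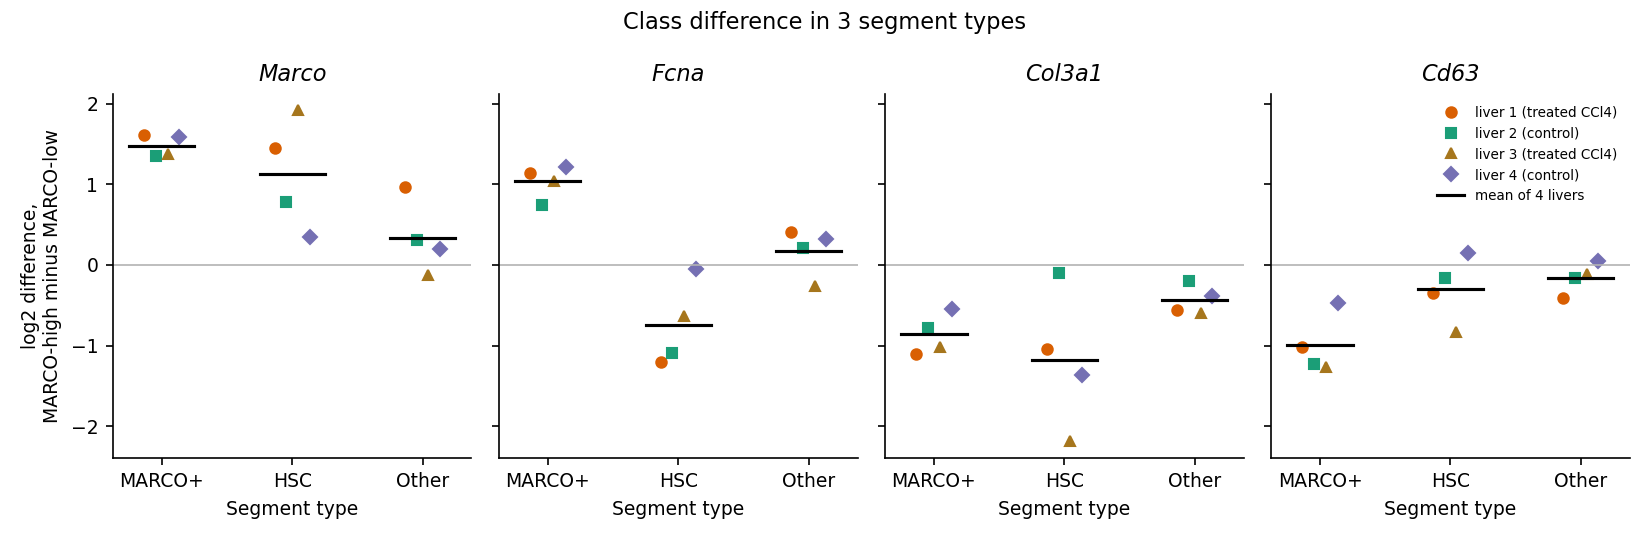
The log2 difference between MARCO-high and MARCO-low ROIs (vertical) in each liver (symbols) and its mean (line) for Marco, Fcna, Col3a1 and Cd63, in MARCO+, HSC and Other segments. Fcna lies above 0 in MARCO+ segments and below 0 in HSC segments in 4 of 4 livers, and Col3a1 below 0 in all 3 segment types compared.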

How the data were processed

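GeoMx probe libraries were demultiplexed with bcl2fastq (2.20.0.422) and the labels name build mm10. Per the study's methods, counts were deduplicated, filtered against negative probes, reduced to genes mainly expressed in stellate cells and scaled to the upper quartile (Q3). The authors deposited these as signal values for 607 genes in 159 segments. Each value was a whole multiple of the step of its segment (96513 of 96513, relative tolerance 1e-06), so counts were recovered by division. Raw reads were not analysed here.

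Segment type, ROI class and liver came from the labels. Linear Q3 values were averaged per liver and class and log2(value + 1) taken, which understates changes of low genes. A limma (3.58.1) model of the 8 means held a liver block (2 residual and 4.999 prior degrees of freedom), and p adjusted over 607 genes by the Benjamini-Hochberg method at 0.05. The block is the animal, and both means of a liver deviated together (r 0.249, 0.335, 0.370 and 0.250). Class effects of segment types were compared by limma on 4 within-liver differences. The p-values rest on the spread between 4 livers together with the spread pooled over genes.

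The members and lists were chosen with earlier results of these data known. Named genes were up to 15 past the threshold per direction with one sign in 4 livers, filled to 8 per direction by lowest unadjusted p, those past the threshold in the other comparisons, and Marco, Fcna and members of described lists. Alternatives were pseudocounts of 0 and 5, a count filter, other averages, weights, no block, re-centring, edgeR (4.0.16), DESeq2 (1.42.0), a linear mixed model (lme4 1.1.37, lmerTest 3.1.3), single segments, and left-out livers or segments. Thinned counts and a floor of 3 counts were added after seeing the data. The fits were run on simulated data with set class differences. Those data held no differences between livers, so they do not test the p-values over 4 livers. RefSeq symbols matched 607 of 607 genes. Software was R 4.3.3 and Python 3.11.15 with pandas 2.3.3.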

Additional observations from a re-analysis of the deposited data

Results flagged for a closer look

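Of 59 groups of 4 to 10 values examined for a sample far from the others, 4 held one. The limits used are those at which chance would give one in about 1 in 20 groups, and that rate was not measured here. The total count of 1 MARCO-high segment of liver 2 was 3197, below its group. A MARCO-high segment of liver 2 had a Marco value of 117.0, the lowest of 8. A MARCO-high segment of liver 4 had a Col3a1 value of 5.05. The Gdf10 difference in liver 4 was -0.59, apart from -0.72, -0.72 and -0.73 in the other livers. The class effect on Fcna differed between MARCO+ and HSC segments by 1.78 on the log2 scale, past the test of that difference, with HSC counts near the lowest of the table.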

How the results depend on the processing

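Counts of genes past the threshold are given for all 4 livers, then the livers labelled treated CCl4, then those labelled control (3, 1 and 0 as reported). They were 30, 23 and 3 with edgeR, 9, 7 and 2 with DESeq2, 31, 13 and 9 with the linear mixed model and 29, 9 and 6 with single segments. The linear mixed model and single segments take segments as units and test the class against their spread. For single segments the estimated correlation within a liver was 0.0085. Their counts are therefore not counts over 4 replicate livers. A pseudocount of 0 gave 1, 0 and 0 and one of 5 gave 5, 4 and 2. The mean of log2 values over segments gave 1, 0 and 0, the median over segments 2, 0 and 0, and weights by the number of segments 4, 1 and 0. Leaving out the genes of low count gave 3, 1 and 1 and re-centring on segment medians also 3, 1 and 1. Without the block by liver, the pairing within animals, the counts were 4, 1 and 1. Leaving out the fifth of segments with the lowest counts gave 6, 2 and 0, leaving out the ROI of liver 1 numbered in another form 1, 0 and 0, and thinned counts 0, 0 and 0. One class effect for all livers gave 6 genes. In the 3 comparisons above, the gene behind each count of 1 was Marco, on whose protein the ROIs were classed. Leaving out each liver in turn gave 0 to 0 genes in each of the 3 comparisons. Leaving out a liver of the label compared leaves 1 liver, whose spread is taken from the other pair. A count of 0 in that case says nothing about stability. Leaving out a liver of the other label keeps both livers of the pair, and the spread is then estimated with 1 fewer liver. The difference between the labels had 0 genes in each setting run. The comparison with HSC segments gave 1 gene, Fcna, except with counts below 3 set to 3, a setting chosen after seeing the data that gave 23 genes, Fcna among them, and that raises low genes most in shallow segments. The comparison with Other segments gave 3 genes with a pseudocount of 5, 1 with the mean of log2 values, 2 after re-centring, 4 with counts set to at least 3 and 0 otherwise. The causes were not tested. None of the 319 values of the 16 named genes over 20 alternatives turned in direction. These genes were chosen for one sign in 4 of 4 livers, which leaving out a liver cannot turn, so this is no measure of stability. Of the 319 values, 22 fell short of the threshold where the reported value passed it, and 41 passed where it did not. Fcna stayed between 0.92 and 1.15 and passed in 12 of 20 alternatives, and Col3a1 between -0.92 and -0.72 and passed in 11 of 20. These tallies include the linear mixed model and single segments, in which segments are the units. Genes at a few counts per segment, such as Gdf10, Resf1 and Des, are limited by depth.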

Other observations

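Genes whose level followed Marco over the 45 MARCO+ segments were ranked by Pearson correlation of log2 values after centring on each liver, a description across segments that share livers, ROI class and scaling. Fcna came first (r = 0.94), then the heparan sulfate proteoglycan gene Sdc3 (0.82), the complement gene C4b (0.72) and Vcam1 (0.62). After centring on liver and class they were 0.84, 0.69, 0.55 and 0.50, so the likeness was present within classes too. Cd63 (-0.76), Col3a1 (-0.73) and Dcn (-0.67) were at the other end, at -0.52, -0.43 and -0.45 within classes.

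Further groups were listed after values had been seen and were given no test. Counts are of genes with one sign in 4 of 4 livers, which 8.4% of all genes were on the higher and 12.9% on the lower side, and choosing by value makes these lists no guide to a group. Of 10 macrophage-expressed genes in the deposited values, 5 were higher in MARCO-high ROIs in 4 of 4 livers and 1 lower, with a median log2 difference of 0.17. Of 7 complement genes 2 were higher and 2 lower in 4 of 4 livers. Of 12 lysosomal and endosomal genes 4 were higher and 1 lower, with a median of 0.07 and Cd63 lowest at -0.99. Of 10 interferon-stimulated genes 2 were higher and 1 lower, with a median of 0.05.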
